A study of Mus musculus with 6 samples.

Results

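The proteasome genes were examined in leukaemia cells of the Eµ-TCL1 mouse model. Members were the rows of the count table whose symbol is Psma, Psmb, Psmc, Psmd or Psme followed by a number, with pseudogenes left out, which gave 43 of 54232 genes. Of these, 40 had enough counts to be tested. CK1i is the group of 3 libraries from mice that received PF-670462, which blocks the delta and epsilon forms of casein kinase 1. The dose was 50 mg/kg, taken orally and diluted in PBS with 10% kolliphor. CTRL is the group of 3 libraries from mice that received this vehicle alone. In both groups, spleen mononuclear cells of terminally ill Eµ-TCL1 mice, which carry the TCL1 oncogene under a B-cell enhancer, had been injected into wild-type C57BL/6J recipients. Dosing began on day 5 in both groups, in cycles of 5 days with treatment and 2 days without, and lasted 8 weeks. It ended when the CTRL mice reached terminal disease, so the libraries show the end of treatment only. Leukaemic B cells were sorted from the spleens, and the 6 libraries share 1 batch label. Age, and whether 1 donor or several supplied the transferred cells, are not given in the sources used here. The library titles carry 6 distinct numbers, but the labels do not say whether each stands for a mouse. The p-values therefore measure only how far these samples spread, which may be technical.

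The proteasome is the protease that degrades ubiquitin-tagged proteins. Its barrel, the 20S core, has outer rings of alpha subunits that control entry and inner rings of beta subunits, of which PSMB5, PSMB6 and PSMB7 cut peptide bonds. The 19S cap has a base of ATPases that unfold the substrate and a lid that removes ubiquitin. Interferon gamma and lymphoid identity are known to bring in PSMB8, PSMB9 and PSMB10 instead of PSMB5, PSMB6 and PSMB7, which makes the immunoproteasome and favours peptides for MHC class I. Activator rings such as PSME1 with PSME2 can take the place of the cap.

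Libraries held 2472064 to 3105137 counts, and the 43 members together took 0.453% to 0.487% of the counts in CK1i libraries and 0.434% to 0.501% in CTRL libraries. Library pairs correlated with r of 0.961 to 0.976 across genes, which are not independent replicates. Between any 2 libraries the chi-square divided by its degrees of freedom was at least 4.22, so no pair agreed within sampling noise. CTRL replicate 1 stood apart on the first principal component, at 31.4 where the other 5 libraries lay between -12.4 and 4.68. All 8 B-cell and CLL markers were tested, with summed levels of 5338 to 5878 CPM in CK1i and 5523 to 5641 CPM in CTRL. CPM is counts scaled to the library total, which in this 3' end protocol is not divided by gene length because each transcript is read at its end. None of 7 T-cell markers had enough counts to test, with 0.328 to 8.09 CPM in all in CK1i and 1.05 to 2.61 CPM in CTRL.

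No proteasome gene passed the threshold, an adjusted p under 0.05 in edgeR's quasi-likelihood test over all tested genes, where 0% of the 10067 genes passed. The smallest adjusted p among the members was 0.999. Of the 40 tested members 20 had higher and 20 lower values in CK1i, and 48.8% of all tested genes were higher. The median log2 fold change of the members was 0.0031, against -0.0055 for all tested genes. At an unadjusted p under 0.05 there was 1 member, Psmb5, with a higher value, which is 2.5% of the members. Of all tested genes 4.70% had such a p, 2.70% with higher values. DESeq2 gave no member such a p (2.88% of all tested genes) and limma-voom gave Psmb5 alone (4.78%). The groups did not overlap for 5 members, or 12.5%, against 9.70% of all tested genes. These were Psme2 and Psma4, with every CK1i library above every CTRL library (5.22% of all genes), and Psmb3, Psmd6 and Psmd11, with all CK1i libraries below (4.48% of all genes). All but Psmd6 share sequence near their transcript ends with other genes. Of 75-base windows in the last 300 bases, the shared part was 46.1% for Psme2, 23.1% for Psmd11, 14.6% for Psmb3 and 10.6% for Psma4. Among the 27 tested members with no shared window, a subset chosen after seeing the data, the groups did not overlap for 1. In bulk libraries such as these, fewer cells of a type and less RNA per cell cannot be told apart.

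The precision of the fit bounded the differences of most members. For 31 of the 40 members the 95% interval of the fold change lay within 1.5-fold of no change in either direction, and for 38 it lay within 2-fold. Over all tested genes the same held for 5104 and 8510 of 10067. Members were better counted than the average gene, with a median of 114 CPM against 36.0 CPM. The SE (standard error) of their log2 fold changes had a median of 0.161, against 0.195 for all tested genes. Psmb5 and Psme2 were the members whose interval reached past 2-fold.

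**Figure D1:**
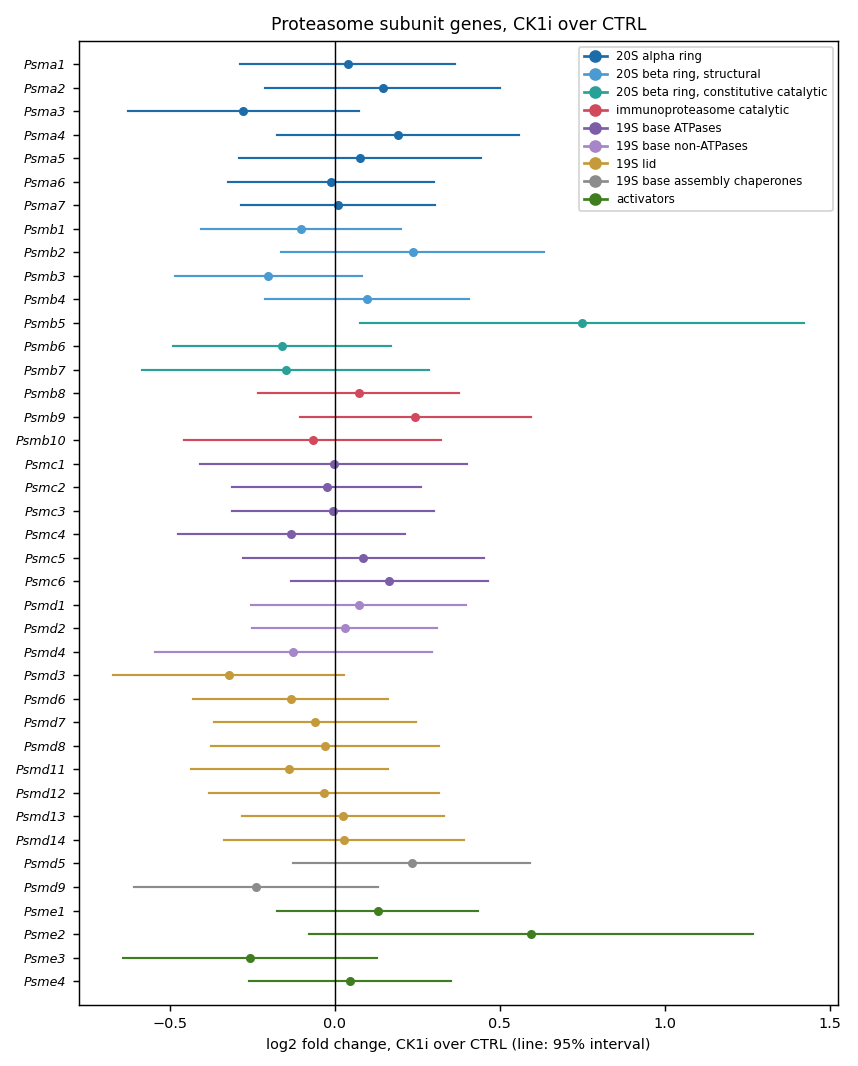
Log2 fold changes (x axis, CK1i over CTRL) of the 40 tested proteasome genes (rows), coloured by subunit class, with lines for the 95% interval from edgeR. The intervals of all members but Psmb5 (0.075 to 1.42) include 0.

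The catalytic subunits carry the comparison of the immunoproteasome with the constitutive core. It uses 3 pairs: Psmb8 with Psmb5, Psmb9 with Psmb6 and Psmb10 with Psmb7. Psmb5 was also the member with the smallest edgeR p. The start regions of Psmb8, Psmb9 and Psmb5 are shown first, without those of Psmb6 and Psmb7. They are 300-base windows from RefSeq on GRCm38.p6, 250 bases before to 50 after the annotated start, printed in the direction of the gene. Psmb9 is shown because it lies beside Psmb8. The window of Psmb10, which held no searched motif, is left out. Capitals mark matches to 2 of 3 motifs searched on both strands: TTCNNNGAA, the letters of a gamma-activated site, and TGACNNNGC, the core of an antioxidant response element. The third was GAAA, any 2 bases and GAAA again, as in the interferon-stimulated response element, with no match in these 3 windows. No 2 matches overlap here.
Psmb8 (chr17:34197945-34198244, + strand): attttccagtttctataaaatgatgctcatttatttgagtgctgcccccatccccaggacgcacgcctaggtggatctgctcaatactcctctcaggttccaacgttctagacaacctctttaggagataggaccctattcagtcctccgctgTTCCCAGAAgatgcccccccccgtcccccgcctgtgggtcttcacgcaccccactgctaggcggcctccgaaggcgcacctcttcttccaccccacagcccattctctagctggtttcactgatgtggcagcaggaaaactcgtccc
Psmb9 (chr17:34187281-34187580, - strand): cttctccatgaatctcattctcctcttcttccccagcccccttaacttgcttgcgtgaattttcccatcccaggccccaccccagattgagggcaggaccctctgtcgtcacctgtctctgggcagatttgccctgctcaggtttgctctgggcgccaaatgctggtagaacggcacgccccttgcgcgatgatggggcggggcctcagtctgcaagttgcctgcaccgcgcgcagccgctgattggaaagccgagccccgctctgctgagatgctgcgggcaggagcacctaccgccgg
Psmb5 (chr14:54617946-54618245, - strand): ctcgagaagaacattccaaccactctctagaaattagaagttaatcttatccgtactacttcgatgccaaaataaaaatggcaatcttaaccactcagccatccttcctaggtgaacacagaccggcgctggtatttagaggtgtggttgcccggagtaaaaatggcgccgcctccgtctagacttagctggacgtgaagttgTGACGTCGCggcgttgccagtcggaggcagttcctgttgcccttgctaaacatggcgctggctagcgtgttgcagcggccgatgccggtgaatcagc
The RefSeq starts used here lie 474 bases after the GENCODE gene start for Psmb8, 434 for Psmb9 and 27 for Psmb5, so the windows lie wholly or partly inside the genes as GENCODE draws them. The match in Psmb8, TTCCCAGAA, begins 97 bases before the RefSeq start, and the match in Psmb5, TGACGTCGC, begins 47 bases before it. Psmb9 has no match in its window. Windows were found for 36 of the 43 members. The letters TTCNNNGAA occur in 2 of these 36 members and in 8.3% of 32851 windows of all genes, the interferon-stimulated letters in 4 and in 3.44%, and TGACNNNGC in 6 and in 12.4%. Psmb6, whose window is not shown, is among the 6 members with TGACNNNGC, as is Psmb5. A match says only that these letters are present.

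Psmb8 encodes the immunoproteasome form of the chymotrypsin-like subunit (ENSMUSG00000024338, chromosome 17, 34197721 to 34201454 on GRCm38). By replicate number, it had 201, 228 and 223 CPM in CK1i, against 177, 218 and 226 CPM in CTRL. All values below follow this order. CK1i replicate 2 was the highest library and CTRL replicate 1 the lowest, with the other 4 between. Its log2 fold change was 0.072 ± 0.14 (SE), with a 95% interval of -0.23 to 0.38. Without CTRL replicate 1 the sign turned, to -0.032.

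Psmb9 encodes the caspase-like position's immunoproteasome form and lies beside Psmb8, at chromosome 17, 34181987 to 34187764. It had 167, 136 and 168 CPM in CK1i, against 125, 162 and 111 CPM in CTRL. CK1i replicates 1 and 3 were the highest of the 6, and CTRL replicate 2 lay above CK1i replicate 2. Its log2 fold change was 0.24 ± 0.16 (interval -0.11 to 0.59). The value depended on single CTRL libraries: it was 0.41 without CTRL replicate 2 and 0.13 without CTRL replicate 3. Tap1, which encodes a chain of the peptide transporter that supplies class I molecules, starts back to back with Psmb9. Tap1 had 190, 189 and 166 CPM in CK1i and 151, 177 and 222 CPM in CTRL (log2 fold change -0.015 ± 0.16). CTRL replicate 3 thus held the highest Tap1 and the lowest Psmb9 value. The 2 genes overlap at their starts on opposite strands, and with the strand setting unknown their reads there cannot be told apart.

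Psmb10 encodes the immunoproteasome form of the trypsin-like subunit. It had 49.7, 55.1 and 51.7 CPM in CK1i, against 40.1, 59.1 and 64.8 CPM in CTRL. The 3 CK1i libraries lay inside the span of the CTRL libraries. Its log2 fold change was -0.067 ± 0.18 (interval -0.46 to 0.32), and 0.077 without CTRL replicate 3. None of the 3 immunoproteasome genes had an unadjusted p under 0.05. Macrophages also use the immunoproteasome, and the 8 macrophage and monocyte markers summed to 34.8 to 39.3 CPM in CK1i, against 23.4 to 27.9 CPM in CTRL. Cd68 was the 1 marker of that list that could be tested (log2 fold change 0.50 ± 0.18, edgeR adjusted p = 0.929), and Cd14 was at 0. These sums were nearly all Cd68, which averaged 32.8 CPM in CK1i and 23.3 CPM in CTRL. The other markers had 0 to 29 counts each over the 6 libraries, so the sums rest on 1 gene. The part of macrophages in the immunoproteasome values was not tested.

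Among the constitutive catalytic genes, Psmb5 stood out. It encodes the chymotrypsin-like subunit that PSMB8 replaces and had 31, 48 and 36 counts in CK1i, against 13, 26 and 27 counts in CTRL. Those are 10.2, 15.7 and 14.4 CPM in CK1i and 4.61, 10.4 and 9.01 CPM in CTRL. CTRL replicate 1 was far the lowest, and CK1i replicate 1 lay just under CTRL replicate 2. The log2 fold change was 0.75 ± 0.31, a 1.68-fold higher level with a 95% interval of 1.05 to 2.68 (edgeR unadjusted p = 0.032, adjusted p = 0.999). Without CTRL replicate 1 it was 0.47, and with DESeq2 the unadjusted p was 0.068. Of the 75-base windows in the last 300 bases of Psmb5 transcripts, 35.1% also occur in Gm3375. Reads from such stretches cannot be assigned to 1 gene, so its counts are uncertain.

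Psmb6 encodes the caspase-like subunit that PSMB9 replaces. It had 128, 99.2 and 94.6 CPM in CK1i, against 109, 118 and 133 CPM in CTRL, with CK1i replicate 1 inside the CTRL span and the other 2 below it. Psmb7 encodes the trypsin-like subunit that PSMB10 replaces and had 29.3, 29.4 and 21.3 CPM in CK1i, against 26.3, 26.7 and 35.7 CPM in CTRL. The log2 fold changes were -0.16 ± 0.15 for Psmb6 and -0.15 ± 0.20 for Psmb7. Neither gene's groups stood apart. The windows at the end of Psmb7 are shared for 80.1% with Nek6, which overlaps Psmb7 on the opposite strand. Nek6 had 106 counts over the 6 libraries, against 480 for Psmb7. With the strand setting unknown, reads from that overlap cannot be told apart.

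**Figure D2:**
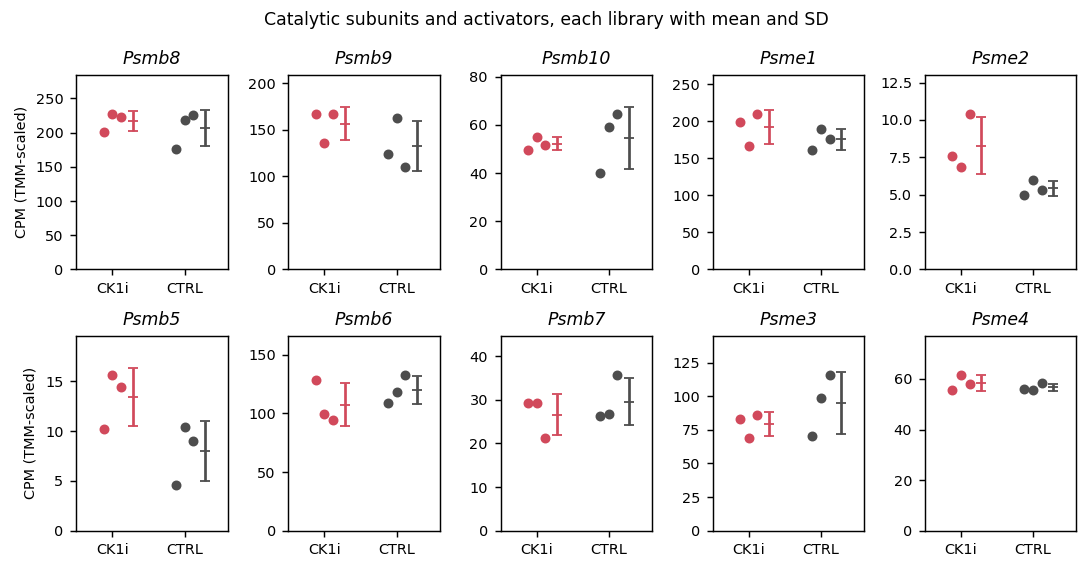
Levels in CPM (y axis, from 0) of the immunoproteasome genes, their constitutive counterparts and the activators in the CK1i libraries (left) and CTRL libraries (right), each point 1 library, with the mean and SD beside (n = 3). The groups overlap in every panel but that of Psme2, where CK1i lies at 6.85 to 10.4 and CTRL at 4.97 to 5.99.

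The balance between each immunoproteasome gene and its counterpart was measured inside each library as a log2 ratio of counts, which needs no scaling. The log2 ratio of Psmb8 to Psmb5 was 4.28, 3.85 and 3.93 in CK1i, against 5.21, 4.37 and 4.62 in CTRL. All 3 CK1i libraries lay below all 3 CTRL libraries, by 0.71 on average (exact permutation p = 0.1, the smallest that 3 against 3 allows; adjusted p = 0.3 over the 3 ratios). Of the 2 genes, Psmb5 had a log2 fold change of 0.75 and Psmb8 of 0.072. Leaving out CTRL replicate 1 gave a difference of -0.47.

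For Psmb9 over Psmb6 the log2 ratio was 0.38, 0.46 and 0.82 in CK1i, against 0.19, 0.46 and -0.27 in CTRL. This ratio was 0.42 higher in CK1i on average, with groups that overlapped (exact permutation p = 0.3, adjusted p = 0.45). For Psmb10 over Psmb7 it was 0.76, 0.91 and 1.28 in CK1i, against 0.61, 1.14 and 0.86 in CTRL, a difference of 0.11 (exact permutation p = 0.6). Single libraries moved both: the Psmb9 ratio difference was 0.23 without CTRL replicate 3, and the Psmb10 ratio difference turned to -0.034 when CK1i replicate 3 was left out and to -0.016 when CTRL replicate 1 was. Psmb8, Psmb9 and Psmb10 together held 71.3%, 74.4% and 77.3% of the counts of the 6 catalytic genes in CK1i, against 70.9%, 73.9% and 69.3% in CTRL. Exact 95% binomial intervals were 69.2% to 73.4% in CK1i replicate 1, 72.3% to 76.5% in CK1i replicate 2 and 74.99% to 79.4% in CK1i replicate 3. In CTRL they were 68.4% to 73.35%, 71.6% to 76.1% and 67.1% to 71.5%. The group means were 74.3% ± 2.97 in CK1i and 71.4% ± 2.33 in CTRL (SD, n = 3 each), a difference of 2.95 percentage points with groups that overlapped. It was 1.48 points without CK1i replicate 3, 1.91 without CTRL replicate 3 and 4.45 without CK1i replicate 1. These binomial intervals cover counting error only. The 75-base end windows shared with other genes were 80.1% for Psmb7 and 35.1% for Psmb5. They were 7.54% for Psmb8 and 0% for Psmb6, Psmb9 and Psmb10. How far this moves the share and the levels of the ratios was not tested.

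**Figure D3:**
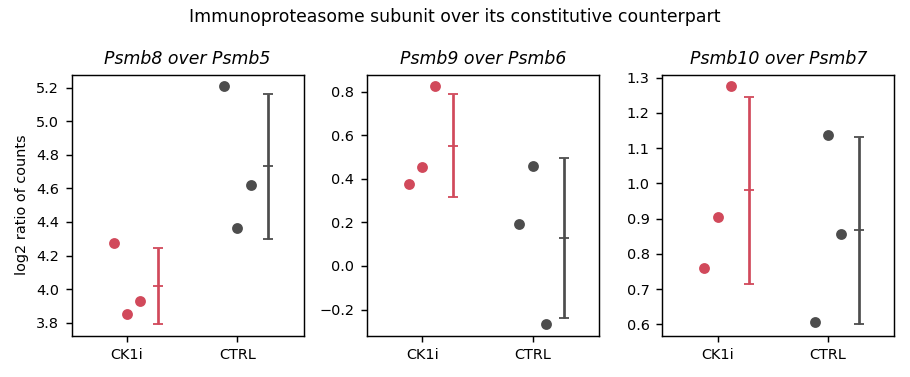
Log2 ratio of counts (y axis, own scale in each panel) of each immunoproteasome gene to the constitutive gene it replaces, in CK1i libraries (left) and CTRL libraries (right), with the mean and SD beside (n = 3). The Psmb8 ratio is lower in CK1i by 0.71 without overlap, and the other 2 ratios overlap.

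The activators had small differences apart from Psme2. Psme1 and Psme2 encode the alpha and beta chains of an interferon-inducible ring, and lie near each other on chromosome 14 (Psme1 at 55578123 to 55581529, Psme2 at 55587441 to 55591113). Psme2 had 7.57, 6.85 and 10.4 CPM in CK1i, against 4.97, 5.99 and 5.34 CPM in CTRL, so the groups did not overlap. It had only 14 to 26 counts in a library, and 46.1% of the windows at its end also occur in Psme2b. Its log2 fold change was 0.59 ± 0.31 (interval -0.079 to 1.27, edgeR unadjusted p = 0.079). Psme1, its partner, had 199, 167 and 211 CPM in CK1i, against 162, 190 and 176 CPM in CTRL, a log2 fold change of 0.13 ± 0.14 with overlapping groups.

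Psme3 encodes the nuclear activator ring. It had 82.9, 69.2 and 86.2 CPM in CK1i, against 70.3, 98.6 and 116 CPM in CTRL. CTRL replicate 1 lay among the CK1i values and the other 2 CTRL libraries above them (log2 fold change -0.26 ± 0.18, interval -0.64 to 0.13). Without CTRL replicate 1 the log2 fold change was -0.44 (edgeR unadjusted p = 0.014, adjusted p = 0.797). Psme4, which encodes the large single-chain activator PA200, was nearly flat, at 55.6, 61.7 and 58.2 CPM in CK1i and 56.1, 55.5 and 58.4 CPM in CTRL (0.045 ± 0.14).

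In the alpha ring, which gates the core, 5 of 7 tested genes had higher and 2 lower values in CK1i, with a median log2 fold change of 0.039. Psma2 had 356, 319 and 441 CPM in CK1i, against 339, 391 and 278 CPM in CTRL, with CK1i replicate 3 highest and CTRL replicate 3 lowest. Psma4 had 33.23, 39.5 and 33.29 CPM in CK1i, against 28.8, 33.13 and 31.0 CPM in CTRL. Its groups did not overlap, but 2 CK1i libraries were nearly level with CTRL replicate 2 (log2 fold change 0.19 ± 0.17). Psma3 had 55.6, 51.2 and 64.6 CPM in CK1i, against 82.0, 62.3 and 63.1 CPM in CTRL, with CTRL replicate 1 alone well above the rest (-0.28 ± 0.16). Of the 75-base windows at its end, 31.3% also occur in other genes. The gene 3110056K07Rik overlaps Psma3 on the opposite strand, with 376 counts over the 6 libraries against 1063 for Psma3. With the strand setting unknown, reads from this overlap cannot be told apart. Psma8, the testis alpha subunit, had 0 counts in all 6 libraries, which allows a level of up to 0.176 CPM.

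The 4 structural beta genes, which have no active site, had a median of -0.0024, with 2 higher and 2 lower. Psmb3 had 110.55, 110.58 and 112 CPM in CK1i, against 118, 138 and 128 CPM in CTRL. The CK1i libraries were alike and all below CTRL, yet the log2 fold change was only -0.20 ± 0.13 (edgeR unadjusted p = 0.15). Psmb2 had 63.5, 48.6 and 58.6 CPM in CK1i, against 48.3, 59.5 and 37.4 CPM in CTRL, with overlap (0.24 ± 0.19). Psmb11, the thymus-specific catalytic subunit, also had 0 counts in all 6 libraries.

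In the 19S cap 7 of 19 tested genes had higher and 12 lower values, with a median log2 fold change of -0.025. These 19 include the assembly chaperones Psmd5 and Psmd9. In the 20S core 10 of 17 were higher and 7 lower, with a median of 0.039. These 17 include the immunoproteasome genes Psmb8, Psmb9 and Psmb10. The cap and the core were not tested against each other. The 6 ATPase genes of the cap, Psmc1 to Psmc6, had log2 fold changes between -0.13 and 0.17, a median of -0.0040 and 95% intervals that all lay within 1.5-fold of no change. Psmc6 had the smallest p of them, with 145, 115.47 and 123 CPM in CK1i, against 118, 114.57 and 109 CPM in CTRL. CK1i replicate 1 alone exceeded the other 5 clearly (0.17 ± 0.14). The base subunits without ATPase activity, Psmd1, Psmd2 and the ubiquitin receptor Psmd4, lay between -0.13 and 0.072.

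In the lid 2 of 8 genes had higher and 6 lower values, with a median of -0.047. Psmd3, a scaffold subunit of the lid, had the smallest p of the cap, with 147, 138 and 136 CPM in CK1i, against 133, 184 and 209 CPM in CTRL. CTRL replicate 1 lay below the 3 CK1i libraries and the other 2 CTRL libraries above them (-0.32 ± 0.16, edgeR unadjusted p = 0.068). Psmd11 had 68.4, 61.3 and 62.2 CPM in CK1i, against 72.4, 68.7 and 70.1 CPM in CTRL, without overlap but with a gap smaller than the spread inside either group (-0.14 ± 0.14). Psmd6 had -0.13 ± 0.14 and Psmd14, the deubiquitinase of the lid, 0.027 ± 0.17.

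Chaperones that assemble the base are among the Psmd symbols. Psmd5 had 45.41, 62.6 and 54.9 CPM in CK1i, against 42.2, 51.1 and 45.40 CPM in CTRL (0.23 ± 0.17). Psmd9 had 61.2, 51.5 and 42.9 CPM in CK1i, against 53.2, 70.3 and 60.8 CPM in CTRL (-0.24 ± 0.17). Both overlapped between the groups, and Psmd10, the third, had 7 counts in all and was not tested.

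**Figure D4:**
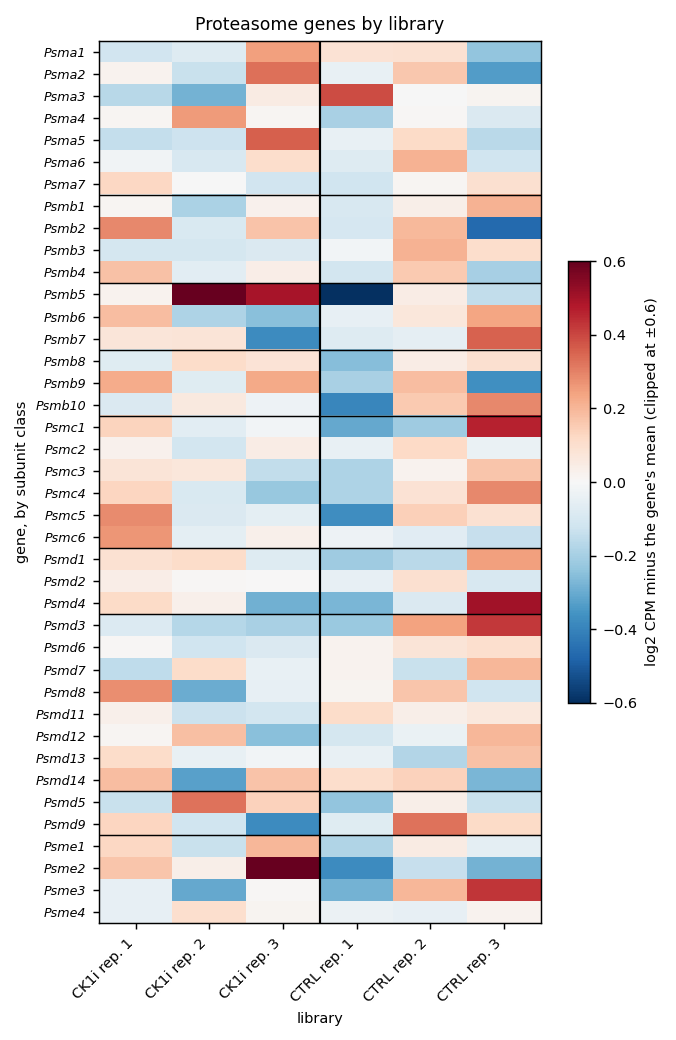
Level of each tested member (rows, by class, lines between classes) in each library (columns, CK1i left of the thick line, CTRL right), as log2 CPM minus the gene's mean over the 6 libraries. CTRL replicate 3 has most 19S rows red and most alpha ring rows blue, and no class differs as a block between the groups.

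Single libraries held many of the members' extremes. CTRL replicate 3 held the highest value of 15 of the 40 members, or 37.5%, where it held the highest of 19.4% of all tested genes. CTRL replicate 1 held the lowest value of 13 members, or 32.5%, against 21.8% of all tested genes. In CTRL replicate 3 the classes parted: it was the highest library for 10 of 17 tested 19S subunits, chaperones left out, and the lowest for 4 of 7 alpha genes. The mean deviation from a gene's own mean, on the log2 CPM scale, was 0.13 for those 19S genes and -0.12 for the alpha genes in that library. The gap between the 2, 19S minus alpha, came to 0.13, 0.0079 and -0.22 in the CK1i libraries, against -0.10, -0.069 and 0.25 in the CTRL libraries, each by replicate number. CK1i replicate 3 lay at the low end and CTRL replicate 3 at the high end, and the other 4 libraries lay between them. These classes were set side by side after the values were seen, and no test was made. Within groups, members had a median SD of 0.193 in log2 CPM, against 0.229 for all tested genes.

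**Figure D5:**
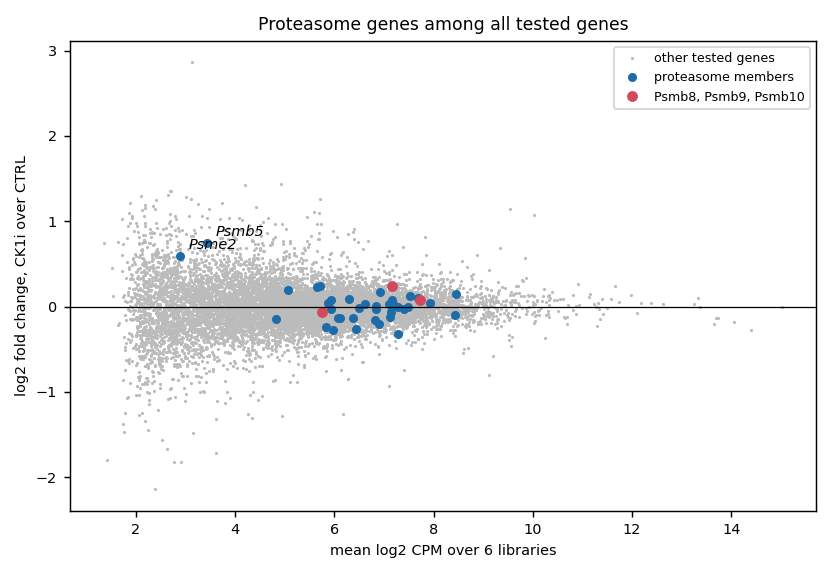
Log2 fold change (y axis, CK1i over CTRL) against mean log2 CPM (x axis) for the 10067 tested genes in grey, the proteasome members in blue and the 3 immunoproteasome genes in red. Psmb5 and Psme2, at the low end of the members' levels, are the 2 members beyond 0.5, which 7.08% of all tested genes exceed.

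Genes that work with the proteasome were grouped in 5 lists. None of their genes passed the threshold, and Ubqln4 was the 1 gene with an unadjusted p under 0.05, which 4.70% of all tested genes had. The 5 chaperones of 20S assembly had a median log2 fold change of 0.016, with 3 higher and 2 lower. Of these, Psmg2 had -0.18 ± 0.21 and Psmg1 -0.19 ± 0.23. Among 10 other proteasome-bound proteins 6 were higher and 4 lower, with a median of 0.017. Sem1, a small lid subunit, had 0.20 ± 0.17 and Ube3c, a ubiquitin ligase bound to the proteasome, -0.16 ± 0.14. For Ube3c all CK1i libraries lay below all CTRL libraries, as for 4.48% of all tested genes.

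Regulators of proteasome genes had 5 of 6 tested members higher and 1 lower, with a median of 0.15. Nfe2l1, the transcription factor that raises subunit genes when the proteasome fails, had 63.8, 52.8 and 45.3 CPM in CK1i, against 55.0, 60.3 and 56.8 CPM in CTRL. It was named after its values were seen, and its CTRL values lay inside the CK1i span. Ddi2, the protease that activates NFE2L1, had 150, 143 and 137 CPM in CK1i, against 126, 120 and 135 CPM in CTRL. CK1i exceeded CTRL without overlap, as for 5.22% of all tested genes (0.17 ± 0.13, edgeR unadjusted p = 0.21). Ngly1, which removes sugars from NFE2L1, had 0.20 ± 0.19, and Nfe2l3 had 0 counts.

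Ubiquitin genes and shuttles had 4 of 13 tested members higher and 9 lower, with a median of -0.037. Ubqln4, which carries ubiquitinated proteins to the proteasome, had 40.5, 38.5 and 36.1 CPM in CK1i, against 42.6, 46.3 and 66.8 CPM in CTRL. All CK1i libraries lay below all CTRL libraries, as for 4.48% of all tested genes. CTRL replicate 3 stood above the rest (-0.44 ± 0.19, edgeR unadjusted p = 0.035, adjusted p = 0.999). Without that library the log2 fold change was -0.21 (edgeR unadjusted p = 0.25), and with DESeq2 the unadjusted p was 0.064. The edgeR p was also above 0.05 without CK1i replicate 2 (0.069) and without CK1i replicate 3 (0.086). Ubqln2, its relative, had 0.22 ± 0.21, and 0.0048 without CK1i replicate 1.

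In the class I peptide pathway 8 of 12 genes were higher and 4 lower, with a median of 0.049. Canx, a chaperone of class I heavy chains, had 0.14 ± 0.14.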

How the data were processed

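Sorted splenic leukaemia cells gave 3 CK1i and 3 CTRL libraries, made with a QuantSeq forward 3' end kit with molecular identifiers, per the labels' protocols. The authors deposited 1 table of whole-number counts per gene. The submitters' processing notes name UMI-tools 1.1.1, Trimmomatic 0.36, STAR 2.7.3a and featureCounts 1.6.3 and the build GRCm38.p6, with no order. The sources used here do not give the strand setting, or whether identifiers were collapsed. Without collapsing, reads are no independent molecules. Binomial intervals and floors cover counting error only, and fold change intervals include the spread between libraries.

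Counts were fitted over all genes in R 4.3.3 with edgeR 4.0.16: filterByExpr (minimum count 10, minimum total 15), TMM scaling, the robust quasi-likelihood test and Benjamini-Hochberg adjustment over 10067 genes. Adjusted p under 0.05 was the threshold. CPM values of single genes are TMM-scaled and sums over lists are not, log2 CPM uses a prior count of 2, and log2 ratios a pseudocount of 0.5. SE is the log2 fold change over the root of F. DESeq2 1.42.0 and limma 3.58.1 were alternatives. Ratios were compared by a two-sided exact permutation test over 20 assignments. The edgeR fit was also run on simulated data whose changes were larger than any member's. That run does not show how the fit handles smaller changes. Coordinates and transcripts come from GENCODE M21 (GRCm38), start windows from RefSeq.

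Members and lists were chosen with earlier results of these data known. Named with values were the catalytic and activator genes, then the 5 members with the smallest p in each direction, and up to 2 genes of each pathway list. Psmd6, Psmd14, Psma8, Psmb11, Psmd10, Tap1, Nfe2l1, Nfe2l3, Cd68 and Cd14 fall outside that rule. A gene that the rule names is not reported here. The lists of natural killer, neutrophil, dendritic, erythroid, plasma cell and stromal markers were summed as well. They gave 0.809 to 1.31 CPM in CK1i and 0.326 to 0.809 CPM in CTRL for natural killer cells, 0 to 3.54 and 0 for neutrophils, 2.83 to 4.27 and 1.62 to 3.59 for dendritic cells, 3.24 to 5.47 and 3.85 to 5.55 for erythroid cells, 461 to 1322 and 912 to 1616 for plasma cells, and 165 to 180 and 173 to 193 for stroma, CK1i before CTRL each time. The stroma sum was nearly all Pecam1, at 165 CPM on average in CK1i and 179 CPM in CTRL. Col1a1 averaged 2.66 and 4.59 CPM, and Col3a1 was at 0. Most of the plasma cell sum was Jchain, Irf4 and Prdm1. Sdc1 averaged 5.85 CPM in CK1i and 7.7 CPM in CTRL, and Tnfrsf17 7.14 and 6.81 CPM. The part of these cell types in the members' values was not tested.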

Additional observations from a re-analysis of the deposited data

How the results depend on the processing

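No proteasome member was called under any alternative run. The count of members with an unadjusted p under 0.05, 1 in the fit reported, was 0 with DESeq2 (2.88% of all genes), 0 among the 27 tested members with no shared 75-base end window, an alternative chosen after seeing the data, and 0 to 2 with 1 library left out. Without CTRL replicate 1 these were Psmd3 and Psme3 (5.91% of all genes), without CTRL replicate 2 Psmb5 and Psmb9 (6.73%), and without CK1i replicate 2 or 3 there was none. Over all genes, edgeR with no filter called 3 and DESeq2 5 (0.0266% of 18824), against 0 in the fit reported and 0 with limma-voom. Genes with an unadjusted p under 0.05 were 763 of 18826 with no filter (4.05%) and 290 of 10067 with DESeq2, against 473 of 10067 (4.70%). Leaving out 1 library gave 0 to 1 called genes. The members' median log2 fold change ran from -0.052 without CTRL replicate 1 to 0.031 without CK1i replicate 2. RLE and upper quartile scaling left 20 members higher. With 1 library left out, 4 to 10 of the 40 members changed sign, most without CTRL replicate 3. Among the genes named by rule the log2 fold change did so for 5, running from -0.032 to 0.14 for Psmb8, -0.0025 to 0.26 for Psma2, -0.33 to 0.082 for Psmg2, -0.25 to 0.077 for Psmb10 and -0.23 to 0.013 for Psmb7. The Psmb10 to Psmb7 ratio difference ran from -0.034 to 0.25 and the Psmb9 to Psmb6 one from 0.23 to 0.59. The Psmb8 to Psmb5 difference was -0.59 with a pseudocount of 5 and ran from -0.89 to -0.47. The cause of these shifts was not tested. Genes of few counts, such as Psmb5 and Psme2, limit what the depth can show. No paired analysis was possible because the groups share no replicate numbers in the labels, and the numbers used here only name libraries.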
